A study of Mus musculus with 15 samples.

Results

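The comparison described here set the 4 thalamus libraries labelled control cocaine against the 4 labelled cKO saline, 8 of the 14 libraries analysed and of the 15 samples in the series. They were chosen by these labels, and the Maged1 level of all 8 lay in the same low range of the series. The control label stands for mice with a floxed Maged1 (Maged1 Loxp), and cKO for mice that also carried Vglut2-Cre, so that Maged1 was removed only from neurons with the vesicular glutamate transporter Vglut2 while other thalamic cells kept it. The control cocaine mice received saline on 3 habituation days and then cocaine at 20 mg/kg intraperitoneally on 5 days, and the cKO saline mice received saline on all of these days. All mice were males of 2 to 4 months. The whole thalamus was dissected and RNA depleted of ribosomal RNA was sequenced. Treatment and labelled genotype both differ between these groups, so what belongs to either cannot be told apart if the labels hold. The genotype tag of cKO saline replicates 1 and 2 names the floxed control genotype, against their titles. Control saline replicates 3 and 4 are tagged cKO, also against their titles, and groups follow the titles throughout. For brevity the 4 libraries labelled control cocaine are called the cocaine libraries and the 4 labelled cKO saline the saline libraries. The other 6 libraries, 2 labelled cKO cocaine and 4 labelled control saline, share no library with them and served for comparison.

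Maged1 encodes a MAGE protein, an adaptor that works with ubiquitin ligases and deubiquitinases. The study pairs it with USP7, a deubiquitinase, and with monoubiquitin on histone H2A, the mark that Polycomb repressive complex 1 writes. The thalamus relays signals to the cortex and striatum through glutamatergic neurons, most of which use Vglut2, and its midline paraventricular nucleus projects to the nucleus accumbens. Cocaine blocks the uptake of dopamine and other monoamines, and neuronal activity in general induces a small set of immediate early genes such as Fos and Egr1.

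Values are the deposited TPM, a transcript's share of all transcripts scaled to a fixed total per library, divided by a trimmed-mean scaling factor for each library, called scaled TPM. These factors were 0.809 to 0.873 in the cocaine libraries and 1.07 to 1.21 in the saline libraries, without overlap. With TPM as deposited the median log2 difference over all tested genes was -0.37, against 0.01 after scaling, so that most directions below hold relative to that shift. TPM keeps no record of sequencing depth, and the counting error of each value is unknown. In the labelled control cocaine libraries 36.02% to 39.4% of all listed TPM came from the 5 most abundant genes, against 18.9% to 20.9% in the saline libraries. Along the first principal component of the 8 libraries, with 28.2% of the variance, the cocaine libraries lay from 12.2 to 25.8 and the saline libraries from -21.5 to -17.7. On the second (17.6%) control cocaine replicates 1 and 4 lay at the ends, at 31.9 and -26.2.

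Maged1 lies on chromosome X from 94535474 to 94542143 on the minus strand (GRCm38). Its scaled TPM was 58.5, 87.9, 77.3 and 71.3 in the cocaine libraries and 78.0, 76.6, 68.6 and 64.5 in the saline libraries, in replicate order. The groups overlapped, with means of 73.7 ± 12.3 and 71.9 ± 6.42 (SD, n = 4 each) and a log2 difference of 0.02. In the other 6 libraries it was 152, 166, 149.7 and 151 in those labelled control saline and 152 and 174 in those labelled cKO cocaine. The libraries labelled control cocaine were thus as low as the cKO saline libraries, against their genotype label, and the libraries labelled cKO cocaine as high as the control saline ones. Whether the genotype labels of the cocaine libraries were exchanged was not tested. If they were, the groups compared here would share a genotype, and so would the groups of the other 6 libraries. Because Maged1 was in view when these libraries were chosen, its levels are given as a description without a test. By tag instead of title, which puts saline libraries of high and low Maged1 into the same group, this difference was -0.45.

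**Figure D1:**
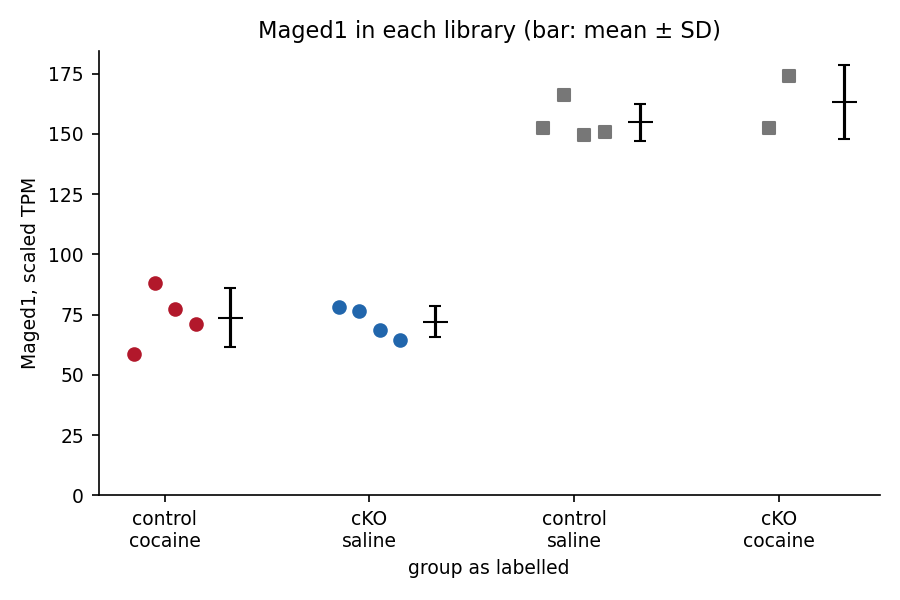
Scaled TPM of Maged1 (y axis) in each of the 14 libraries by labelled group (x axis), with the mean ± SD beside each group. The 4 control cocaine and 4 cKO saline libraries overlap between 58.5 and 87.9, and the other 6 libraries sit from 149.7 to 174.

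Among 13471 tested genes, 142 (1.05%) were called higher and 154 (1.14%) lower in the cocaine libraries than in the saline libraries. A call required a limma adjusted p under 0.05 and a log2 fold change of at least 0.5 in size. Most calls were small: 93 of the 142 and 94 of the 154 changed by less than 0.75. Without the fold minimum 1707 genes were higher and 1438 lower. Across all tested genes the 4 cocaine libraries lay above the 4 saline libraries without overlap for 13.1% and below for 11.1%, and among called genes this held for 117 of the 142 and 134 of the 154. Removing a trend with GC content and transcript length left 88 and 96 calls. With TPM as deposited 38 genes were called higher and 3266 lower.

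The same genes were then read in the other 6 libraries, cocaine against saline. Of the 142 genes called higher, 132 (93.0%) were counted as positive there too (median 0.57), and 72 were called. That count holds Scarna10, Mir7045, Snord104, Mir425 and Mir1894, whose value there (1.11e-16) was only rounding and shows no rise. Mir323 (-2.22e-16) was counted as opposite for the same reason. Of the 154 called lower, 145 (94.2%) had a negative one (median -0.45), and 52 were called. No gene was called in opposite directions. Over all tested genes 6820 of 13471 had a positive value in this second comparison, 186 (1.38%) were called higher and 121 (0.898%) lower. Both comparisons set cocaine against saline libraries with opposite genotype labels and similar Maged1 levels within each. Their scaling factors, 0.807 to 0.947 for cKO cocaine and 1.07 to 1.13 for control saline, differed in the same direction too, and the part of scaling in this likeness was not tested.

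**Figure D2:**
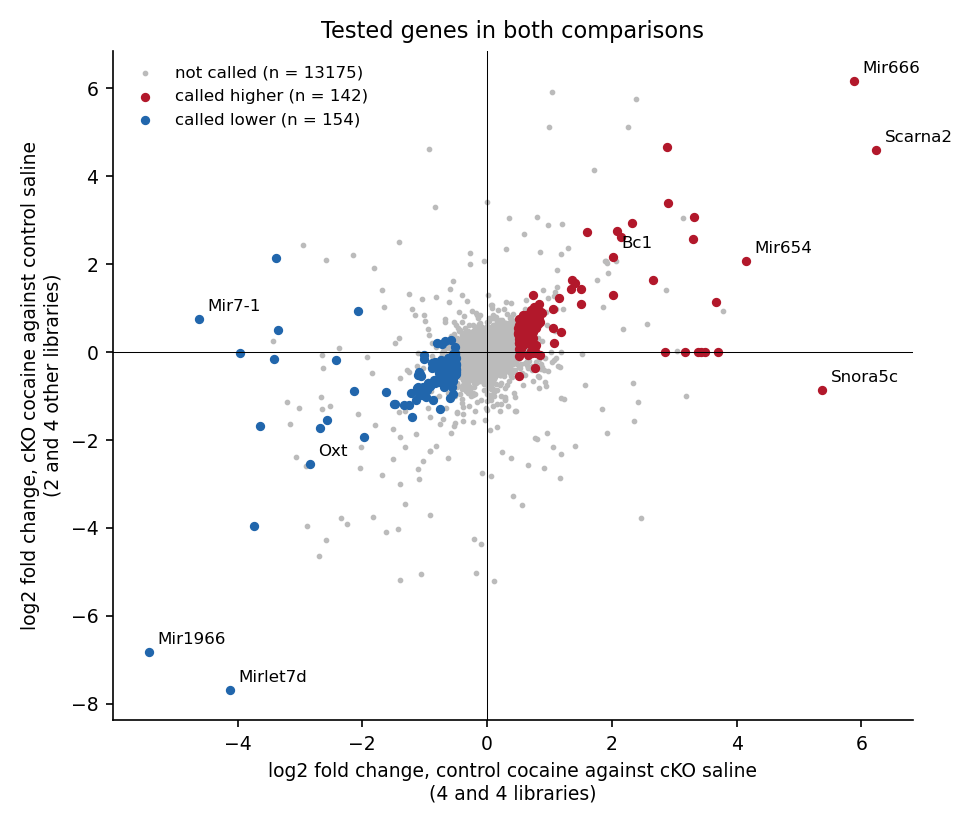
Log2 fold change of each of 13471 tested genes between the control cocaine and cKO saline libraries (x axis) and between the cKO cocaine and control saline libraries (y axis), with the 142 genes called higher on the x axis in red and the 154 called lower in blue. Of the called genes 277 of 296 were counted with the same sign on both axes, some of them on the horizontal line within rounding. Snora5c and Mir7-1 lie at the lower right and upper left.

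The difference between the 2 comparisons was also fitted directly. By limma 0 genes (0%) were called for it, and 1095 (8.13%) had an unadjusted p under 0.05. Among the called genes this unadjusted share was 22 of 142 (15.5%) and 28 of 154 (18.2%). The called genes were chosen by their change in the first comparison, which is itself part of the difference. A larger share among them can come from that choice and is no separate support. Snora5c, a small nucleolar RNA, came closest: its log2 fold change was 5.38 here and -0.87 (SE 0.65) in the other 6 libraries (difference 6.25, limma adjusted p = 0.0773). In those 6 it was near the floor, at 0.635, 0, 0.935 and 0.358 scaled TPM in control saline and 0 and 0 in cKO cocaine. A fall there is thus not shown. Pbx4 and Nrtn, protein-coding genes with opposite signs, were chosen after their values were seen. Pbx4, a homeobox gene, was called higher (0.51, SE 0.15) against -0.53 (SE 0.19) in the other 6 libraries, a difference of 1.05 (limma adjusted p = 0.488). Nrtn, which encodes the growth factor neurturin, was called lower (-0.80, SE 0.14) against 0.21 (SE 0.17), a difference of -1.01 (limma adjusted p = 0.488). Neither difference passed the adjusted threshold.

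Short noncoding RNA genes held the largest differences. They made up 14.8% of the genes called higher and 10.4% of those called lower, against 1.61% of all tested genes. Some of them, such as Mir654 and Scarna2, were listed at 0 throughout a group. Such genes passed the filter on low values only through libraries in which they were high. These shares and the counts of called short RNA genes below are therefore descriptions, not separate support. Mature sequences of microRNA genes described next are shown because these genes are among the short RNA genes named for their large differences, with the seed (bases 2 to 8) that pairs with targets in capitals. They are RefSeq sequences of GRCm38.p6, written 5′ to 3′. The libraries measured RNA from each hairpin locus, not the mature form.
mmu-miR-666-5p: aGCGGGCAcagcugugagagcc
mmu-miR-666-3p: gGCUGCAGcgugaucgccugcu
mmu-miR-654-5p: uGGUAAGCugcagaacaugugu
mmu-miR-654-3p: uAUGUCUGcugaccaucaccuu
mmu-miR-1966-3p: uUUCUGACucaacucucccuuag
mmu-miR-7a-5p: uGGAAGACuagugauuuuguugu
mmu-let-7d-5p: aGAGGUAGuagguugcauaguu
All 11 mature sequences of the 6 named microRNA genes had different seeds. The seed of let-7d is the one that defines the let-7 family, and miR-7a is the microRNA known to bind the circular RNA Cdr1as.

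Mir666, on chromosome 12 from 109717085 to 109717183, was at 134, 107, 176 and 123 scaled TPM in the cocaine libraries and at 1.99, 2.12, 1.47 and 1.51 in the saline libraries. The groups lay far apart, with a log2 fold change of 5.89 (SE 0.20, limma adjusted p = 4.49e-09), and the other 6 libraries gave 6.17 (SE 0.24). Mir654, from 109723218 to 109723301 on the same chromosome, was at 7.37, 10.1, 8.05 and 8.29 in the cocaine libraries and listed at 0 in every saline library. Mir654 passed the filter on low values only through libraries in which it was high, so its call is no separate support, and the same holds for the other short RNA genes listed here at 0 throughout a group. Both lie in the imprinted Dlk1-Dio3 region, which holds a large microRNA cluster expressed from the maternal chromosome. Of the 18 called microRNA genes, 7 lay there, 5 called higher and 2 lower, among 19 tested genes of the region. Those called lower were Mir1188 (-0.79, SE 0.16) and Mir1193 (-1.62, SE 0.37), so members of the cluster differed in opposite directions. Mir7045 was at 20.5, 0, 7.85 and 11.2 in the cocaine libraries and listed at 0 in all saline libraries, and control cocaine replicate 2 overlapped them.

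Among microRNA genes called lower, Mir1966 (chromosome 8 from 105615466 to 105615573) was at 0, 8.81, 0 and 0 scaled TPM in the cocaine libraries and at 41.0, 65.9, 22.9 and 59.2 in the saline libraries. The other 6 libraries gave the same direction, with a log2 fold change of -6.82 (SE 0.95, limma adjusted p = 0.00117). Mirlet7d (chromosome 13 from 48536012 to 48536114) was at 18.8, 0, 0 and 22.8 against 88.0, 26.7, 63.5 and 65.6, without overlap. Neither Mirlet7d nor Mir1966 reached 1 TPM in 3 or more cocaine libraries of either label. Both thus passed the filter on low values only with saline libraries, so their calls are no separate support. Mir7-1 (chromosome 13 from 58392779 to 58392886) was at 0, 0, 14.6 and 0 against 20.5, 28.3, 45.9 and 23.7. In the other 6 libraries its log2 fold change was 0.75 (SE 1.53), and the difference between the comparisons did not pass (-5.36, SE 1.98, limma adjusted p = 0.565). Over the list, 8 of 144 tested microRNA genes (5.56%) were called higher and 10 (6.94%) lower, against 1.05% and 1.14% of all tested genes. The list median was -0.37 against 0.01 for all genes, and 918 of the 1153 listed were at 0 in all 8 libraries. Hairpins of this size come close to the length of a library fragment, which makes their TPM imprecise.

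Small nucleolar and Cajal body RNAs guide the chemical modification of ribosomal and spliceosomal RNA. Of 57 tested, 10 (17.5%) were called higher and 4 (7.02%) lower, against 1.05% and 1.14% of all tested genes (list median 0.06). Scarna2 was at 63.5, 16.3, 36.1 and 51.3 scaled TPM in the cocaine libraries and listed at 0 in each saline library. Scarna13 was at 315, 296, 308 and 303 against 114, 115, 90.5 and 111, a tight separation with a log2 fold change of 1.51 (SE 0.08, limma adjusted p = 3.82e-07). Snora5c was at 24.8, 58.0, 159 and 82.6 against 0.625, 1.48, 2.89 and 0.371, separated but widely spread. Scarna10 was at 20.7, 0, 19.1 and 8.22 against 0 in every saline library. In the other direction, Snora75 was listed at 0 in every cocaine library and at 15.8, 19.1, 23.0 and 0 in the saline libraries. Snora31 was at 8.73, 13.4, 0 and 0 against 27.8, 37.9, 22.9 and 15.9, and Snora69 at 0 throughout against 3.90, 0, 4.26 and 4.43. Of these genes Scarna13 and Snora5c were above 0 in all 8 libraries, and the others were listed at 0 in at least 1 of them.

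Bc1, a brain cytoplasmic RNA that is carried into dendrites and restrains translation there, was called higher. It was at 38376, 51829, 48408 and 49773 scaled TPM in the cocaine libraries and at 11045, 13072, 11550 and 10501 in the saline libraries (chromosome 7 from 144914470 to 144914637). The log2 fold change was 2.02 (SE 0.11, limma adjusted p = 3.96e-07), and 2.17 (SE 0.13) in the other 6 libraries. With quantile scaling the log2 fold change of Bc1 was 0.30 (limma adjusted p = 0.221), and with no filter on low values it was 2.02 (limma adjusted p = 0.325), so that neither gave a call. Quantile scaling gives each rank the same value in every library, so it limits the fold change of a gene as abundant as Bc1. Bc1 took 10.3% to 13.5% of the listed TPM in the cocaine libraries and 3.60% to 4.48% in the saline libraries. Gm20594 took 10.4% to 16.8% and 3.24% to 4.38%, and it was called higher too (log2 fold change 2.32, SE 0.17, limma adjusted p = 1.06e-05). These shares enter the deposited TPM of every other gene.

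Among protein-coding genes called higher without overlap, 7 are described here. Lars2, the mitochondrial leucyl-tRNA synthetase, was at 5.57, 29.3, 32.6 and 42.6 scaled TPM against 4.55, 4.83, 4.97 and 5.04 (log2 fold change 2.08, SE 0.50, limma adjusted p = 0.0105). Control cocaine replicate 1 lay just above the saline libraries. Hypk, a partner of the N-terminal acetyltransferase complex, was at 17.2, 28.0, 32.3 and 28.3 against 8.56, 10.1, 12.4 and 8.92 (1.34, SE 0.19). Atp5k, a subunit of the mitochondrial ATP synthase, was at 158, 192, 210.0 and 189.5 against 84.6, 89.4, 80.7 and 78.7 (1.16, SE 0.08, limma adjusted p = 7.79e-06). The lowest cocaine library of Atp5k lay well above the highest saline library. Cox6a2, a cytochrome c oxidase subunit, was at 29.6, 19.3, 22.8 and 24.0 against 10.7, 9.57, 12.9 and 11.2 (1.07, SE 0.12).

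Tmsb10, which encodes the actin-sequestering peptide thymosin beta 10, was at 298, 337, 313 and 396 scaled TPM in the cocaine libraries against 156, 168, 177 and 144. Its log2 fold change was 1.05 (SE 0.10, limma adjusted p = 4.93e-05), with 0.98 (SE 0.12) in the other 6 libraries. Chgb, chromogranin B of dense-core secretory granules, was at 60.4, 69.96, 66.8 and 77.6 against 37.1, 34.3, 40.3 and 35.6 (0.89, SE 0.08). Arl3, a small GTPase of ciliary transport, was at 51.0, 60.4, 60.7 and 66.3 against 34.6, 32.2, 32.7 and 32.2 (0.84, SE 0.08). These 3 genes gave nearly the same fold change in the other 6 libraries, 0.88 for Chgb and 0.87 for Arl3.

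Genes called lower were less often protein coding by annotation: 76 of 154 (49.4%), against 109 of 142 called higher (76.8%) and 92.5% of all tested genes. No annotation type was matched for 19 of those called lower, 7 called higher and 285 of all, which count here as not protein coding. Names without a descriptive symbol (Gm numbers, LOC numbers and Rik clones) made up 42.9% of the genes called lower, 9.15% of those called higher and 5.31% of all. The median longest transcript was 1643 nt among genes called higher, 2208 nt among those called lower and 3424 nt among all, and the median GC content was 54.1%, 44.3% and 49.7%. The part of length and GC content in the calls was not tested beyond the fit with those trends removed, given above.

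Gm17644, an intergenic noncoding RNA, was at 21.2, 15.1, 13.4 and 14.8 scaled TPM in the cocaine libraries against 37.1, 45.7, 40.7 and 40.9 (log2 fold change -1.34, SE 0.13, limma adjusted p = 6.46e-05). Zfp488, a zinc finger regulator of oligodendrocyte differentiation, was at 59.6, 43.98, 36.4 and 40.3 against 85.8, 102, 88.6 and 88.5 (-1.03, SE 0.13). Olfr613, annotated as an olfactory receptor, was at 9.89, 6.79, 6.21 and 6.09 against 13.6, 17.1, 14.7 and 15.6 (-1.04, SE 0.14). In each of these 3 the highest cocaine library was replicate 1. Klk14, a kallikrein protease, was at 3.23, 3.40, 1.87 and 3.98 against 7.17, 7.68, 7.79 and 5.80 (-1.10, SE 0.18). Igip, a single-exon gene, was at 21.9, 19.2, 19.3 and 19.9 against 30.6, 30.7, 35.3 and 33.7 (-0.69, SE 0.07, limma adjusted p = 7.23e-05). The groups did not overlap for any of these 5 genes. For Zfp488, Olfr613 and Klk14 the rule that named them required this, and Gm17644 and Igip were named by their small adjusted p.

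Psg28, of the pregnancy-specific glycoprotein family, was at 1.64 ± 0.353 scaled TPM in the cocaine libraries and 4.12 ± 0.338 in the saline libraries (SD, n = 4 each; -1.12, SE 0.11). C030023E24Rik, of which no annotation was matched, was at 1.35 ± 0.0698 against 2.81 ± 0.268 (-0.83, SE 0.08), and the long noncoding RNA D5Ertd615e at 7.80 ± 1.77 against 15.4 ± 1.19 (-0.96, SE 0.13). Myoparr was at 55.4 ± 11.4 against 103 ± 6.48 (-0.91, SE 0.12). Olfr856-ps1 was at 48.5 ± 9.81 against 87.0 ± 9.10 (-0.85, SE 0.13), and Speer8-ps1, also a pseudogene by name, at 3.13 ± 0.849 against 6.24 ± 1.79 (-0.88, SE 0.18). Reads of olfactory receptor, Speer and Psg genes can be shared with near-identical copies, and their values are uncertain to that extent. The groups did not overlap for any of these 6 genes. For D5Ertd615e, Myoparr, Olfr856-ps1 and Speer8-ps1 the rule that named them required this. Psg28 and C030023E24Rik were named by their small adjusted p.

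**Figure D3:**
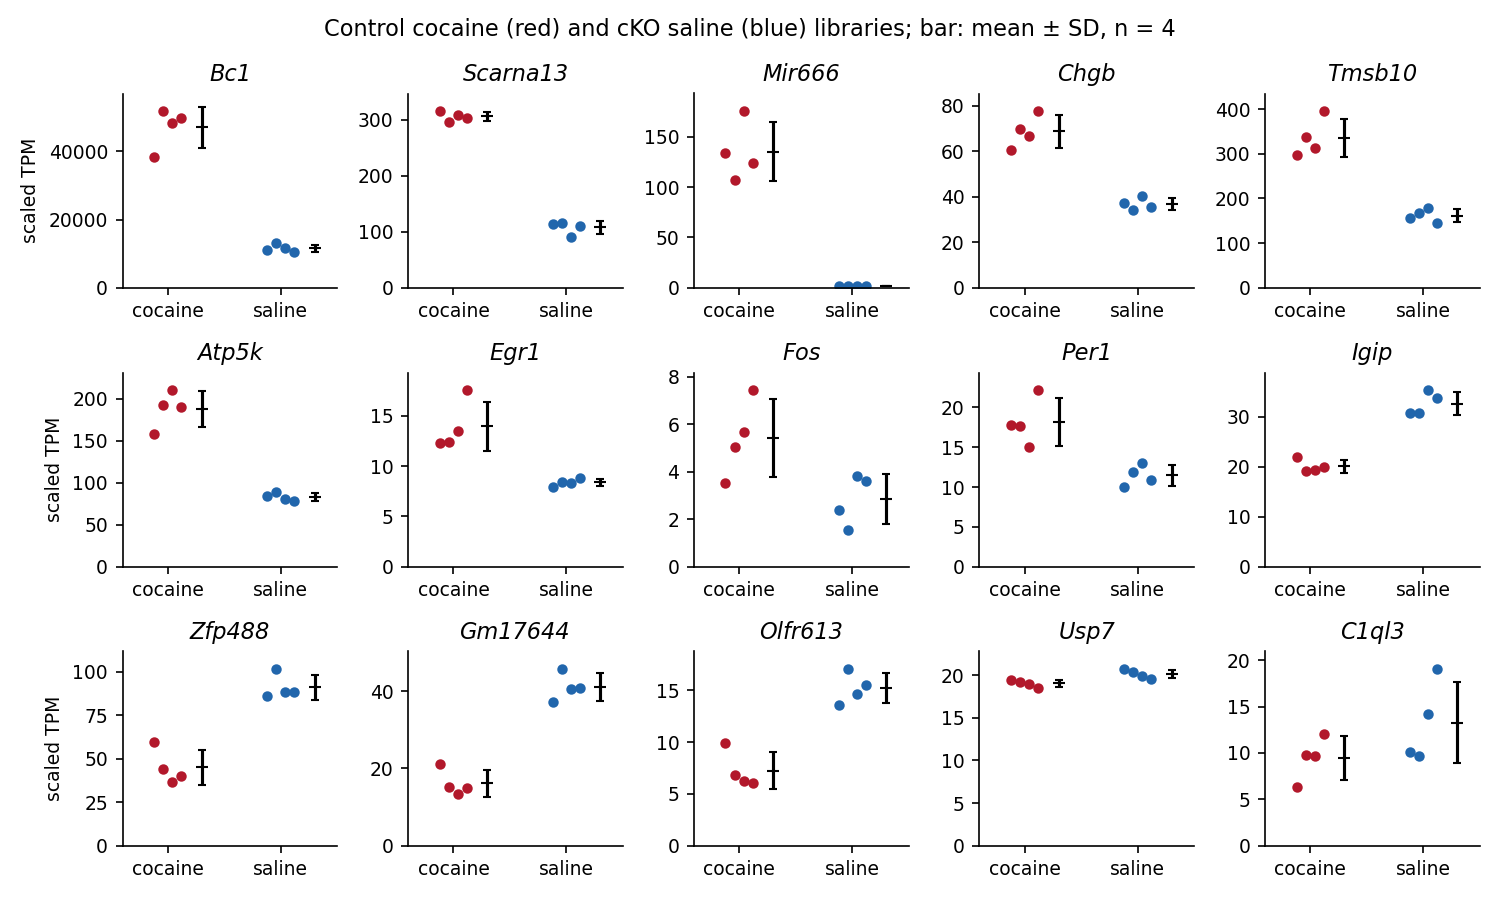
Scaled TPM (y axes, each starting at 0) of 15 genes in the 4 control cocaine libraries (red) and 4 cKO saline libraries (blue), with mean ± SD. Bc1, Scarna13, Mir666, Chgb, Tmsb10, Atp5k, Egr1 and Per1 are higher and Igip, Zfp488, Gm17644 and Olfr613 lower without overlap, Fos overlaps in part, and Usp7 and C1ql3 were not called.

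Immediate early genes respond to neuronal firing within minutes. Of 19 tested, 2 were called higher and 0 lower, with a median of 0.23. Positive fold changes numbered 14 (73.7%), against 52.3% of all tested genes. Egr1, a zinc finger factor, was at 12.3, 12.4, 13.5 and 17.5 scaled TPM in the cocaine libraries against 7.93, 8.43, 8.36 and 8.78 (log2 fold change 0.69, SE 0.10, limma adjusted p = 0.000776), without overlap. Fos, the AP-1 component, was at 3.51, 5.05, 5.67 and 7.43 against 2.397, 1.55, 3.83 and 3.60 (0.84, SE 0.26, limma adjusted p = 0.0365). Control cocaine replicate 1 overlapped the saline libraries, and the call was lost without any of 5 libraries (control cocaine replicates 2, 3 or 4, or cKO saline replicates 1 or 2; limma adjusted p = 0.0639, 0.0749, 0.101, 0.0849 and 0.0972). Dusp1 and Dusp6, phosphatases of MAP kinases, and the nuclear receptor Nr4a1 passed the adjusted p alone, with 0.46 (SE 0.14), 0.36 (SE 0.08) and 0.38 (SE 0.12). Arc, a synaptic activity gene, had -0.09 (SE 0.21), Npas4 had 0.35 (SE 0.15) and Nr4a2 had 0.83 (SE 0.39), none of which passed.

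Per1, the period gene of the circadian clock, was at 17.8, 17.7, 15.01 and 22.2 scaled TPM against 10.04, 11.9, 13.0 and 10.9, without overlap (log2 fold change 0.64, SE 0.11, limma adjusted p = 0.00194). Of 17 clock genes tested, Per1 was the 1 called, with a list median of 0.10. Nr1d1 (0.45, SE 0.07), Per2 (0.40, SE 0.07) and Cry2 (0.18, SE 0.06) passed the adjusted p alone upward, and Clock (-0.20, SE 0.05) and Nr1d2 (-0.20, SE 0.06) downward. The time of day of tissue collection was not given in the sources used here, and its part was not tested. Without control cocaine replicates 1 and 4 and cKO saline replicate 1, Per1 fell under the fold minimum (0.44).

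Promoters of Fos and of a Per1 start site are shown because both genes are known targets of CREB, the cyclic AMP response factor, whose site contains TGACG. They are RefSeq promoter windows (GRCm38.p6, plus strand), from 250 bases before to 50 after the start, 5′ to 3′, with each TGACG in capitals. They cover chr12:85473640-85473939 for Fos and chr11:69099902-69100201 for Per1.
Fos: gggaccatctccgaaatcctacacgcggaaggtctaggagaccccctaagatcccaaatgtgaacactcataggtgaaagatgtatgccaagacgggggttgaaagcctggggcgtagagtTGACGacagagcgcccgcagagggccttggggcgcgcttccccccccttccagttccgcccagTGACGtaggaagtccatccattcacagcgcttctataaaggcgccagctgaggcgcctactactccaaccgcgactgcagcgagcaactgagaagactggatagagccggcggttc
Per1: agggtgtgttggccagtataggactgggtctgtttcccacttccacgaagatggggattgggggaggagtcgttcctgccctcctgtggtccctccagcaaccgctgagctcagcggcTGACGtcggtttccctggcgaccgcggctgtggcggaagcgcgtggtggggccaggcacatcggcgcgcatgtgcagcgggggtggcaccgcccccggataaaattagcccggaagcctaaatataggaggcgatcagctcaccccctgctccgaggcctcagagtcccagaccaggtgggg
Searched on both strands, TGACG occurred in 20.8% of all 32851 windows, in 30.2% of windows of tested genes, in 9 of 16 windows of tested immediate early genes, in 30.2% of windows of genes called higher and in 14.3% of those called lower. A match is a description of these letters, not of a bound site.

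Glucocorticoid-induced genes answer the stress hormone corticosterone. Of 16 tested, 0 were called in either direction, with a median of 0.17. Positive fold changes numbered 14 (87.5%), against 52.3% of all tested genes. Mt1, a metallothionein, was at 223, 209.5, 234 and 226 scaled TPM against 157, 149, 169 and 159, without overlap, and its log2 fold change of 0.49 (SE 0.05, limma adjusted p = 4.85e-05) lay just under the fold minimum. Mt2 (0.48, SE 0.08), Ddit4 (0.43, SE 0.12) and Nfkbia (0.40, SE 0.11) also passed the adjusted p alone. Fkbp5, a chaperone of the glucocorticoid receptor, had 0.16 (SE 0.09) and Tsc22d3 had -0.04 (SE 0.06), and neither passed.

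Heat shock chaperones fold and protect proteins. Of 17 tested none was called at the fold minimum, and the median was 0.15. Positive fold changes numbered 15 (88.2%), against 52.3% of all tested genes. Hsp90ab1 was at 374, 385, 383 and 424 scaled TPM against 316, 299, 309 and 304 (log2 fold change 0.35, SE 0.04, limma adjusted p = 0.000244), and 0.33 (SE 0.05) in the other 6 libraries. With TPM as deposited the list medians turned negative for immediate early (-0.11), glucocorticoid-induced (-0.18), clock (-0.30) and chaperone genes (-0.26), all above the -0.37 of all genes under that scaling.

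**Figure D4:**
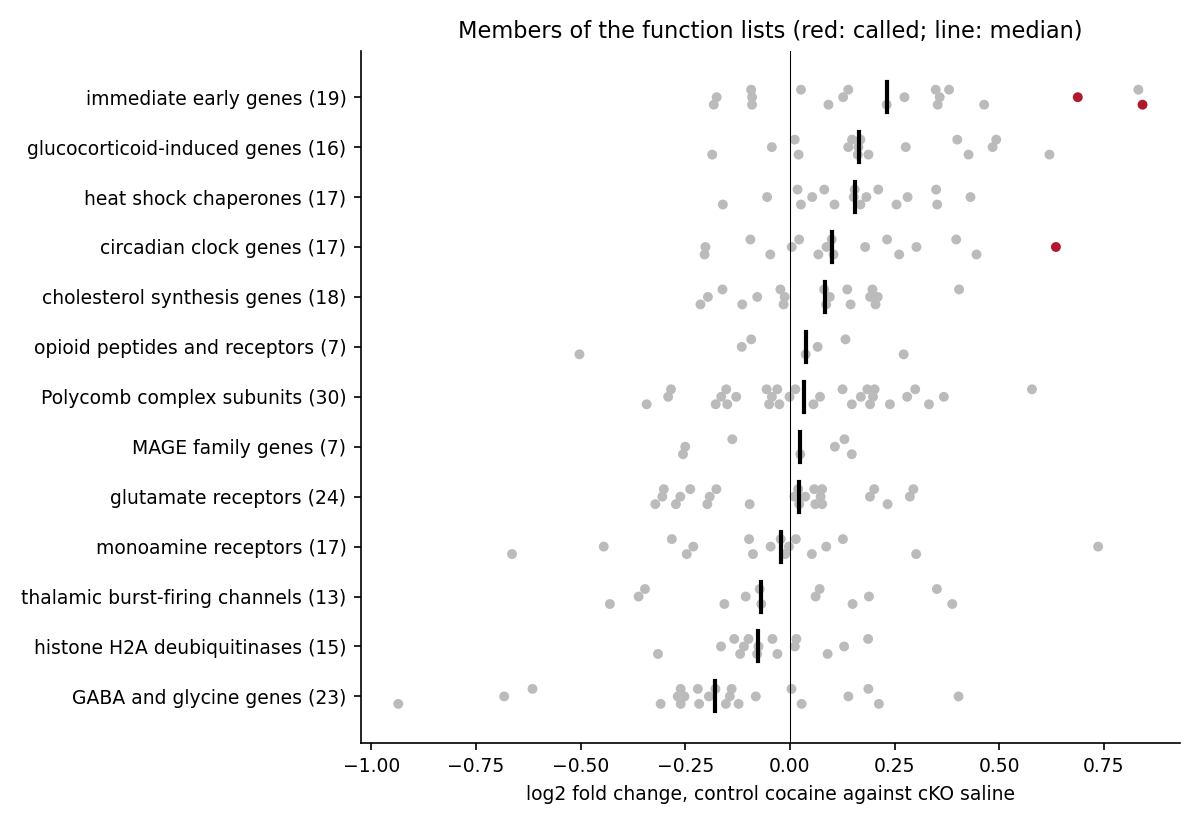
Log2 fold change between the control cocaine and cKO saline libraries (x axis) of each tested member of 13 function lists (y axis, tested members in brackets), with called members in red and the list median as a black line. Fos, Egr1 and Per1 are the called members, and medians run from -0.18 for GABA and glycine genes to 0.23 for immediate early genes.

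USP7 and related enzymes take ubiquitin off histone H2A, the system the study concerns. In the study, however, inhibiting USP7 prevented the rise of monoubiquitinated H2A after cocaine. Usp7 was at 19.4, 19.2, 18.9 and 18.5 scaled TPM in the cocaine libraries and at 20.7, 20.3, 19.9 and 19.6 in the saline libraries. All 4 lay below all 4, as for 11.1% of tested genes, with a log2 fold change of -0.08 (SE 0.04, limma adjusted p = 0.143) and a two-sided exact permutation p of 0.0286, the smallest that 4 against 4 allows. Of 15 tested genes of the H2A deubiquitinase list, which was drawn up to include Asxl1, Asxl2 and Asxl3 beside the enzymes, 0 were called (median -0.08). Mysm1 was at 5.00, 4.08, 4.19 and 4.03 against 5.35, 5.34, 5.82 and 5.45 (-0.32, SE 0.07, limma adjusted p = 0.00537), under the fold minimum. Of 30 tested Polycomb subunits, which write and read this mark and H3K27 methylation, 0 were called either way (median 0.03). Upward 6 and downward 6 passed the adjusted p alone, beside 1707 and 1438 of all 13471 genes. Bmi1 was at 6.40, 6.44, 6.59 and 6.57 against 8.35, 7.37, 7.98 and 8.59 (-0.29, SE 0.05), and Cbx8 had 0.33 (SE 0.06). Among 7 tested MAGE genes 0 were called, and Mageh1 had -0.25 (SE 0.06, limma adjusted p = 0.00712).

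Of further genes described because of the study's question, none was called. C1ql3, a secreted synaptic organiser, was at 6.35, 9.75, 9.66 and 12.1 scaled TPM against 10.1, 9.72, 14.2 and 19.0 (log2 fold change -0.45, SE 0.22, limma adjusted p = 0.166, exact permutation p = 0.171). It was called with TPM as deposited (-0.85) and with genotype from the tag (-0.81). Hopx, a homeodomain-only protein gene, was at 10.03, 4.80, 6.06 and 5.12 against 4.77, 5.63, 5.08 and 8.496 (0.09, SE 0.20, exact permutation p = 0.6). Scml4, a Polycomb-related gene, stayed under the filter, at 0.602 ± 0.179 against 0.628 ± 0.038 (SD, n = 4 each, exact permutation p = 0.714). The groups overlapped for all 3.

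The listed receptor and channel genes, which are not all such genes tested, held no call. Of 24 glutamate receptor genes 0 were called (median 0.02), and Grm5 was at 14.8, 14.6, 15.04 and 15.9 scaled TPM against 16.6, 19.2, 19.0 and 18.5 (log2 fold change -0.27, SE 0.05, limma adjusted p = 0.00156). The AMPA receptor subunit genes Gria2 (-0.30, SE 0.06), Gria3 (-0.26, SE 0.06) and Gria4 (-0.19, SE 0.04) passed the adjusted p alone downward, and the NMDA subunit gene Grin1 (0.23, SE 0.05) upward. Of 23 GABA and glycine genes 0 were called (median -0.18), and 6 (26.1%) had positive fold changes, against 52.3% of all tested genes. By adjusted p alone 5 passed downward and 1 upward. Gabrb1 was at 11.6, 12.6, 12.8 and 13.4 against 16.1, 14.8, 16.3 and 15.6 (-0.31, SE 0.05). Gabbr2, of the GABA-B receptor, had 0.40 (SE 0.09). Gad1, which makes GABA, had -0.94 with an SE of 0.64 and an adjusted p of 0.318 by limma.

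Monoamine receptors, through which cocaine's rise in transmitters is read, had 0 calls among 17 tested (median -0.02). Adra2c was at 0.991, 1.32, 1.48 and 1.17 scaled TPM against 1.61, 1.96, 1.61 and 2.31 (log2 fold change -0.44, SE 0.11, limma adjusted p = 0.0149). Drd1 had -0.66 (SE 0.27) and Drd2 0.09 (SE 0.15), and neither passed. Opioid peptide and receptor genes had 0 calls among 7 (median 0.04), with Oprm1 at 14.3, 10.9, 11.7 and 15.1 against 9.64, 11.3, 11.2 and 10.4 (0.27, SE 0.11, limma adjusted p = 0.101). Burst-firing channel genes had 0 among 13 (median -0.07), with the potassium channel gene Kcnk3 at 14.8, 12.6, 13.1 and 15.7 against 11.3, 10.9, 10.9 and 10.4 (0.35, SE 0.08). Cholesterol synthesis genes had 0 among 18 (median 0.08), with Mvd at 9.17 ± 1.05 against 6.78 ± 0.295 (0.40, SE 0.09; SD, n = 4 each).

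Ribosomal proteins build the cytosolic ribosome, and oxidative phosphorylation genes the respiratory chain. Of 84 cytosolic ribosomal protein genes 2 were called higher and 0 lower, with a median of 0.09, which was -0.01 with quantile scaling. Positive fold changes numbered 62 (73.8%), against 52.3% of all tested genes. Without the fold minimum 34 passed the adjusted p upward and 6 downward, beside 1707 and 1438 of all 13471 genes. Their mean log2 level, set to 0 over the 8 libraries, was 0.055, 0.108, 0.062 and 0.025 in the cocaine libraries and -0.043, -0.086, -0.081 and -0.040 in the saline libraries, without overlap. Rpl19 was at 187, 214, 205 and 209 scaled TPM against 135, 130.3, 137 and 138 (log2 fold change 0.59, SE 0.05, limma adjusted p = 4.83e-05), and Rpl21 at 69.8, 85.3, 80.2 and 86.9 against 58.0, 51.5, 57.8 and 53.5 (0.54, SE 0.07). Both have many processed pseudogenes that can share reads, and both fell under the fold minimum with quantile scaling (0.47 and 0.44). Of 93 oxidative phosphorylation genes 3 (3.23%) were called higher and 1 (1.08%) lower, against 1.05% and 1.14% of all tested genes. Their median was 0.04, and -0.03 with quantile scaling, and 52 (55.9%) were positive, near the 52.3% of all tested genes. Without the fold minimum 20 passed the adjusted p upward and 14 downward, the called genes included, beside the same 1707 and 1438 of all genes. Besides Atp5k and Cox6a2 above, Ndufb7 of complex I was at 80.7, 89.9, 89.1 and 89.9 against 58.5, 65.4, 58.3 and 62.8 (0.51, SE 0.06). The pseudogene Ndufb4c was at 12.3, 15.9, 10.7 and 18.0 against 24.1, 20.2, 31.5 and 20.6 (-0.74, SE 0.17).

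Markers of thalamic neurons were present in all 8 libraries, and their 12 genes summed to 934 to 1141 scaled TPM in the cocaine libraries and 793 to 1000.1 in the saline libraries. None was called (median 0.23), and 10 (83.3%) had positive fold changes, against 52.3% of all tested genes. Synpo2 was at 28.6, 23.5, 24.6 and 33.6 against 21.2, 19.6, 21.3 and 18.4 (log2 fold change 0.43, SE 0.11, limma adjusted p = 0.0172). Slc17a6, which encodes Vglut2, had -0.04 (SE 0.13). Of 7 midline thalamus markers 0 were called (median 0.08), with Gbx2 at 16.2, 10.2, 11.1 and 19.6 against 7.87, 9.21, 12.5 and 9.16. In such bulk tissue, fewer cells of a type and less RNA per cell cannot be told apart.

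Genes of neighbouring tissue varied widely within the groups. The 8 habenula markers summed to 11.3 to 189 scaled TPM in the cocaine libraries and 11.3 to 55.4 in the saline libraries, and 0 were called although all 8 were positive (median 0.85, against -0.45 in the other 6 libraries). Their mean log2 level, set to 0 over the 8 libraries, was 2.04, 0.33, 0.57 and -1.30 in the cocaine libraries and -1.37, -0.16, -0.45 and 0.35 in the saline libraries. Irx2, a habenula homeobox gene, was at 12.3, 3.86, 4.44 and 2.65 against 1.64, 3.05, 3.22 and 4.42. Ependymal and motile cilium genes, 16 tested with 0 called, showed 0.77, 0.23, 0.19 and -0.98 against -0.94, 0.31, 0.05 and 0.35, and summed to 11.5 to 62.8 and 11.1 to 45.4 scaled TPM. Control cocaine replicates 1 and 4 thus stood at opposite ends of both lists, with cKO saline replicate 1 low in both. Without these 3 libraries 149 genes were called higher and 195 lower, and the part of dissection in the results was not tested.

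Oxt, the oxytocin gene of hypothalamic neurons, was the 1 called among 12 tested hypothalamic peptide genes (list median -0.30). It was at 0, 0, 0.233 and 0 scaled TPM in the cocaine libraries and at 2.36, 2.57, 24.5 and 0.578 in the saline libraries, without overlap but with 1 saline library far above the rest. Every cocaine library lay under the 1 TPM of the filter on low values. Oxt thus passed the filter only through libraries in which it was higher, and its call is no separate support. In the other 6 libraries Oxt was at 101, 179, 182 and 87.5 scaled TPM in control saline and at 8.74 and 52.8 in cKO cocaine. Avp, its neighbour gene for vasopressin, had -1.43 (SE 0.65, limma adjusted p = 0.134). The list summed to 28.5 to 209.8 scaled TPM in the cocaine libraries and 72.4 to 259.5 in the saline libraries. The call for Oxt was lost without the 3 libraries named above (limma adjusted p = 0.119).

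**Figure D5:**
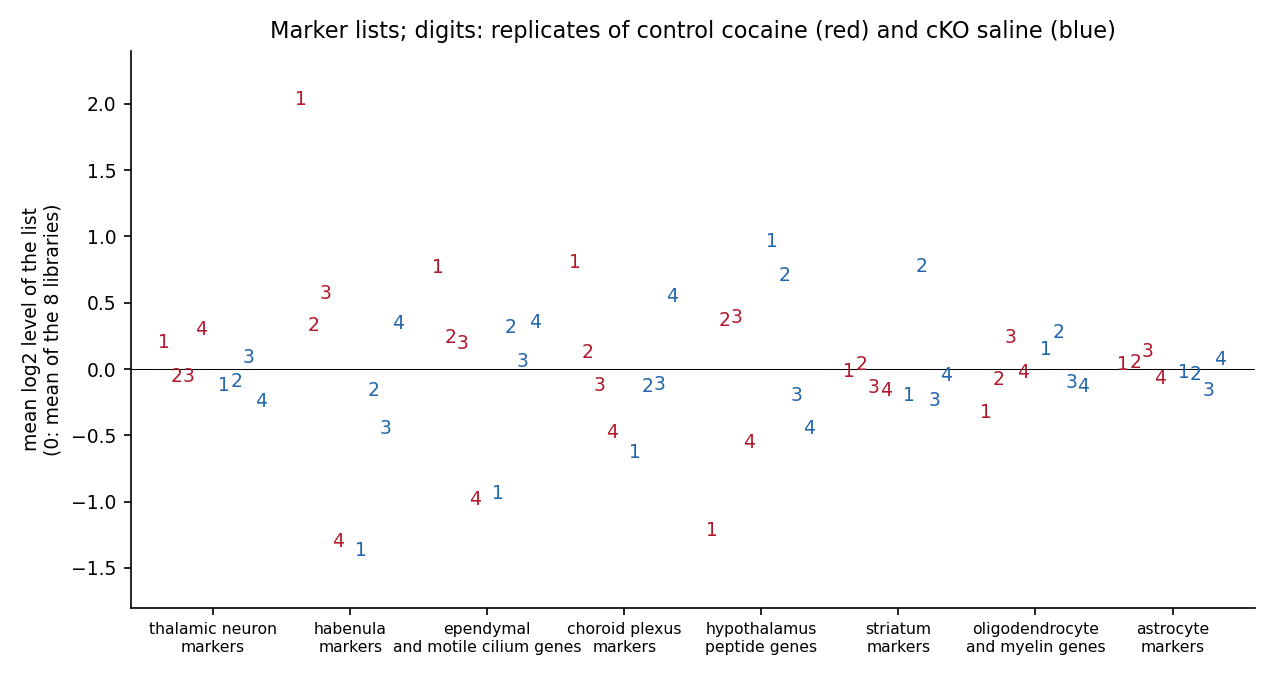
Mean log2 level of 8 marker lists (x axis) in each control cocaine library (red) and cKO saline library (blue), relative to the mean of the 8 libraries (y axis), with each digit a replicate. Habenula markers run from -1.37 to 2.04 and ependymal genes from -0.98 to 0.77 with the groups intermixed, while thalamic neuron markers run from -0.247 to 0.295.

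Glial and vascular lists differed little. Among 17 oligodendrocyte and myelin genes 1 was called, Aspa, the aspartoacylase of N-acetylaspartate breakdown, at 5.82, 8.19, 10.5 and 7.52 scaled TPM against 13.98, 13.2, 10.3 and 10.7 (log2 fold change -0.58, SE 0.14, limma adjusted p = 0.0105). The groups overlapped at control cocaine replicate 3, and without replicate 1 Aspa fell under the fold minimum (-0.45). The list summed to 1798 to 2775 in the cocaine and 1994 to 2803 in the saline libraries (median -0.05). Of 11 astrocyte, 13 microglia and 12 endothelial and mural markers 0 were called, with medians of 0.05, 0.02 and -0.02. Aldh1l1 (0.30, SE 0.05) and C1qc (0.25, SE 0.05) passed the adjusted p alone upward and Slco1a4 (-0.26, SE 0.08) downward. Cux2, a cortical layer gene, had 0.27 (SE 0.08) and passed the adjusted p alone upward. The members with the smallest p did not pass in the ependymal (Tekt4, 0.33, SE 0.18), choroid plexus (Otx2, 0.33, SE 0.24), leptomeningeal (Ptgds, 0.45, SE 0.26) and red blood cell lists (Hba-a1, 0.34, SE 0.22). Choroid plexus (6 tested, median 0.20), leptomeningeal (5, 0.15), striatal (7, -0.11), cortical and hippocampal (4, -0.04) and red blood cell genes (5, 0.09) had 0 calls.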

How the data were processed

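The authors deposited 1 TPM table per library, with 25080 genes by symbol. Per the submitters' processing notes and the study's methods, reads were aligned to GRCm38.p4 with STAR 2.5.3a and quantified with Salmon. In 2 tables TPM carry a decimal comma, read as a point; these are the tables whose unit is recorded as other, and they were deposited by the authors as TPM too. Depth cannot be recovered from TPM.

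TPM were divided by unweighted trimmed-mean factors (30% of log ratios and 5% of mean values trimmed per side), and 0.5 was added before log2, which understates fold changes of low genes. Genes reaching 1 TPM in 3 or more libraries (13471) entered limma 3.58.1 (R 4.3.3), with the 4 groups in 1 means model and an intensity trend; p-values were adjusted by Benjamini-Hochberg over all genes. Nothing says more than that libraries are separate samples, so p-values measure the spread between them. Called genes were named by a rule: the genes the study centres on, the 8 largest differences without overlap each way at a mean of at least 5 TPM, leaving out short RNA genes and Gm or Rik names, the 3 largest each way of short RNA genes, the 4 smallest adjusted p each way, and of 32 lists up to 3 called members each way or the member with the smallest p. No gene was called for the difference between comparisons, so that part of the rule named none. The list of mitochondrially encoded genes had 0 members in the tables. Members, lists and rule were chosen with earlier results of these data known. On simulated data the procedure recovered 197 of 200 genes changed by 1 log2 unit, with 1 false call. The changed genes were drawn above a minimum mean level, rises and falls were balanced, and noise was independent between genes. Many calls here were smaller or near the floor, so these figures are not error rates of the calls. GC content, length and coordinates came from GENCODE M21 (GRCm38), found for 13186 tested genes. Other steps ran in Python 3.11.15 (pandas 2.3.3; numpy 2.4.6; scipy 1.17.1). Alternatives were other scalings, pseudocounts, filters, designs and genotype tags, and each library left out.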

Additional observations from a re-analysis of the deposited data

Results flagged for a closer look

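In each group of 4, the highest or lowest library was marked where its gap to the nearest library took nearly the whole range (Dixon's test at 95%). Over 200 such groups 14 were marked, and chance alone marks about 1 in 20.

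Among named genes in the cocaine libraries, Oxt was at 0.233 scaled TPM in replicate 3 and 0 in the others. Mir1966 was at 8.81 in replicate 2 and Mir7-1 at 14.6 in replicate 3, with 0 elsewhere. Mvd was at 10.7 in replicate 4 against 8.56 to 8.74. Drd1 was at 0.173 in replicate 1 against 0.692 to 0.826, and Ndufb7 at 80.7 in replicate 1 against 89.1 to 89.9.

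In the saline libraries, Scarna13 was at 90.5 scaled TPM in replicate 3 against 111 to 115. Olfr856-ps1 was at 101 in replicate 2 against 81.3 to 83.1. Snora75 was at 0 in replicate 4 against 15.8 to 23.0, and Snora69 at 0 in replicate 2 against 3.90 to 4.43.

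Among mean log2 levels of lists, clock genes were at 0.195 in control cocaine replicate 4 against 0.0136 to 0.0399. GABA and glycine genes were at -0.42 in control cocaine replicate 1 against -0.0097 to 0.0426, and microglia markers at -0.0758 in the same library against 0.0484 to 0.0563. Leptomeningeal and fibroblast markers were at -0.373 in cKO saline replicate 3 against -0.0586 to -0.00405.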

How the results depend on the processing

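Against 142 genes called higher and 154 lower, TPM as deposited gave 38 and 3266, a mean of at least 5 TPM gave 90 and 73, removal of GC and length trends 88 and 96, and no fold minimum 1707 and 1438. A pseudocount of 1 gave 102 lower, and libraries whose tag and title match gave 83 lower. The 307 calls in the other 6 libraries became 1955, 201, 1986 and 146 with TPM as deposited, a mean of at least 5 TPM, no fold minimum and matching tags. The difference between comparisons, with 0 calls, gave 1 with a pseudocount of 0.1, 3 with no filter and 1 with a mean of at least 5 TPM, and 0 to 5 without 1 library. Without 1 library 125 to 174 genes were called higher and 133 to 208 lower, the most higher without control cocaine replicate 4 and the most lower without control cocaine replicate 1, both within 1.5 times. Of called genes 93.6% were counted with the same sign in the other 6 libraries, rounding cases included. This share was 97.6% with TPM as deposited and 96.9% with a mean of at least 5 TPM. It was 95.9% with the groups compared alone, and 82.2% (without control cocaine replicate 4) to 97.2% without 1 library. Over 44 named genes, 20 kept direction and side of the threshold in every alternative run, and 70 of 993 pairs of gene and alternative lost the call. Bc1 lost it with quantile scaling (0.30), which limits fold changes of the most abundant genes, and, by adjusted p, with no filter. Hopx, never called, changed sign with TPM as deposited (-0.30), genotype from the tag (-0.28), matching tags (-0.072), without control cocaine replicate 1 or cKO saline replicate 1 (-0.13 and -0.0031; range without 1 library -0.13 to 0.25) and without the 3 libraries that stand apart (-0.20), an alternative added after seeing the data. The causes were not tested. Replicate numbers are shared only as numbers: same-numbered libraries deviated with correlations of -0.17 to 0.08, 1 of 4 cocaine libraries was closest to its own number, and with the replicate block 131 genes were called higher and 139 lower. TPM sets no depth limit.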
